A study of Homo sapiens with 6 samples.

Results

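The HOXA and MEIS leukemia program was read from 10 genes, of 26810 rows in the table besides the spike-ins. They are the homeobox genes HOXA3, HOXA5, HOXA6, HOXA7, HOXA9 and HOXA10, the cofactor genes MEIS1 and PBX3, and the fusion partner genes PICALM and MLLT10, each matched by its symbol. All 10 had a row and all 10 passed the filter on low values. The cells were U-937, a human myeloid leukemia line, as a single Cas9-expressing clone that received by lentivirus either sgMETTL1.3, a guide RNA against the tRNA methyltransferase gene METTL1, or the control guide sgNS. Each group held 3 libraries of poly(A)-enriched RNA, and cells of both groups were selected with blasticidin at 10 µg/ml and hygromycin B at 200 µg/ml and harvested about 8 to 10 days after transduction. The labels do not say whether replicates were separate cultures, and p-values here reflect only how much these libraries scatter, which may be technical variation. The labels give the line a KMT2A-MLLT10 fusion, whereas U-937 is generally described as carrying PICALM-MLLT10, so KMT2A is reported as well. Values are per gene, and a fusion transcript cannot be told apart from those of the unrearranged genes.

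HOXA genes encode homeodomain transcription factors that lie in 1 cluster and are active in blood progenitors, where they normally decline as myeloid cells mature. HOXA9 binds DNA together with MEIS1 and PBX3, members of the TALE class of homeodomain proteins, and this trio sustains self-renewal in many acute leukemias. Fusions that hold the MLLT10 part recruit the histone methyltransferase DOT1L, and high HOXA expression is a known feature of leukemias with them. The comparison addressed how the guide against METTL1 changes expression of these genes.

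The HOXA genes reported here span chromosome 7 from HOXA2, which starts at 27100354, to HOXA13, which ends at 27200106 (GRCh38, GENCODE release 29), all on the minus strand. MEIS1 lies on chromosome 2 at 66433452 to 66573869 and PBX3 on chromosome 9 at 125747345 to 125967377, both on the plus strand. PICALM lies on chromosome 11 at 85957684 to 86069882 on the minus strand, and MLLT10 on chromosome 10 at 21524675 to 21743630 on the plus strand. Promoter sequences, from 250 bases before to 50 bases after a RefSeq start site (GRCh38.p14), matched 9 of the 10 genes with 18 promoters. No promoter for HOXA5 was printed. The promoters of HOXA9 (chr7:27165488-27165787, minus strand), HOXA10 (chr7:27179812-27180111, minus strand), HOXA6 (chr7:27147725-27148024, minus strand) and MEIS1 (chr2:66434875-66435174, plus strand) are shown because these genes carry the contrasts described below. Each runs 5′ to 3′ on its gene's strand, with the motif matches in capitals.
HOXA9: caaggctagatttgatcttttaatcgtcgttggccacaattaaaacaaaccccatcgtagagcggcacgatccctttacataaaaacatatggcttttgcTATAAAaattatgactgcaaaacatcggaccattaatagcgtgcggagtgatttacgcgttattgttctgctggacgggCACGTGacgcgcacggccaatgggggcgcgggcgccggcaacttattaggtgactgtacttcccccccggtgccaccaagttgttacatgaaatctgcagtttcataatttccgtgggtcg
HOXA10: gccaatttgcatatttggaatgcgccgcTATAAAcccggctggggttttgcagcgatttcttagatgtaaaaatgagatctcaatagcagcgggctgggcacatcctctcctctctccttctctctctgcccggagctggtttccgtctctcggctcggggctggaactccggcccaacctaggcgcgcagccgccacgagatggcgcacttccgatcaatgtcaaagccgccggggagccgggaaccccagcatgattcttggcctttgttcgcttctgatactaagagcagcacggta
HOXA6: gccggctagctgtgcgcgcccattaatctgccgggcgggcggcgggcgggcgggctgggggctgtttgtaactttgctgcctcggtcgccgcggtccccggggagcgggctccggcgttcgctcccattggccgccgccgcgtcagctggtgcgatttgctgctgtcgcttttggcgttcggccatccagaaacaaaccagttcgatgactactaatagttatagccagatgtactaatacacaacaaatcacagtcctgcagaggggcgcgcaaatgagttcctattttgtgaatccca
MEIS1: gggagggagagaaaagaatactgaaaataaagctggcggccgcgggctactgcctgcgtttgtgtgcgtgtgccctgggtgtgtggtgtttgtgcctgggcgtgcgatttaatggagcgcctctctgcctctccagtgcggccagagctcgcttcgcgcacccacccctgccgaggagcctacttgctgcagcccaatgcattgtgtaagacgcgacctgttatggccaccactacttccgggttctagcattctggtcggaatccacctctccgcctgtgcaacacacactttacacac

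The motifs searched on both strands were CACGTG, the E-box that MYC and its relatives bind, TATAAA, the TATA box, TGACAG, the core bound by MEIS and TGIF proteins, and TGATNNAT, a paired element of HOX with PBX or MEIS. The HOXA9 promoter held CACGTG at position -71 and TATAAA at -150 from the start site, and the matches did not overlap each other. The HOXA10 promoter shown above held TATAAA at -222. Another HOXA10 promoter (chr7:27174271-27174570, minus strand), not shown, held TATAAA at -150 on the strand opposite to the gene. The HOXA6 and MEIS1 promoters held none of the 4 motifs. CACGTG was also found in HOXA7, at position -5, and in 1 promoter each of HOXA3 and PICALM, so in 4 of the 18 promoters, against 7.26% of 35116 promoters of the same length. TATAAA was in 4 of the 18 (11.5% of all promoters), TGACAG in 1, that of PBX3 (15.8%), and TGATNNAT in 0 (7.40%). These matches describe letters in the window and not binding.

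Values of the 10 genes are given on 2 scales. The deposited values are TPM, a relative measure per transcript length, multiplied by 1 factor per library that equalises synthetic RNA spike-ins, here called the spike-in scale. The same values rescaled to a common total over all other rows are called TPM. The choice matters, since the median log2 fold change of all genes tested (12449, of 26810) was -0.32 on the spike-in scale and 0.01 as TPM. The spike-in factor ranged from 1.129 to 1.227 in sgNS libraries and from 0.832 to 1.025 in sgMETTL1.3 libraries. Across 34 spike-ins, log2 deviations from the mean of all libraries had an SD of 0.232 in sgMETTL1.3 replicate 1. In the other libraries this SD was 0.0698 to 0.138. The labels do not give the amount of spike-ins or the step at which they were added. The read depth is unknown, because TPM keeps no counts. METTL1 itself had lower values in all 3 sgMETTL1.3 libraries than in any sgNS library, on both scales (log2 fold change -1.41, and -1.08 as TPM). One library, sgMETTL1.3 replicate 1, deviated from the others of its group with transcript GC content (Spearman 0.838 across genes, which are not independent replicates), and the results below are also given without it where it decides a call.

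HOXA5 and HOXA6, neighbours in the middle of the cluster, rose, while HOXA9 and its cofactor gene MEIS1 fell on the spike-in scale. Of the 10 genes, 2 were called higher and 2 lower by limma at an adjusted p under 0.05, and 6 did not pass. Among all genes tested, 6.40% were called higher and 49.3% lower. As TPM, 6 of the 10 were called higher and 1 lower, against 24.8% and 25.3% of all genes. The higher calls as TPM were HOXA3, HOXA5, HOXA6, HOXA7, HOXA10 and MLLT10, and the lower call was MEIS1. HOXA5, HOXA6 and MEIS1 were therefore called in the same direction on both scales. The median log2 fold change of the 10 genes was 0.04 on the spike-in scale and 0.39 as TPM. With sgMETTL1.3 replicate 1 left out, the spike-in scale again gave 2 higher and 2 lower, against 6.43% and 61.4% of all genes, and TPM gave 8 higher and 1 lower, against 36.3% and 34.3%, with PBX3 and PICALM added. GC correction also gave 8 and 1 as TPM, against 30.3% and 34.2%, and 2 and 2 on the spike-in scale, against 8.18% and 61.4%. On the spike-in scale the ranges of the groups were separate and higher for 2 of the 10 genes and lower for 3, against 8.66% and 53.4% of all genes, and as TPM for 6 and 1, against 30.9% and 32.1%. In bulk RNA, fewer cells expressing a gene and less of its RNA per cell cannot be told apart.

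**Figure D1:**
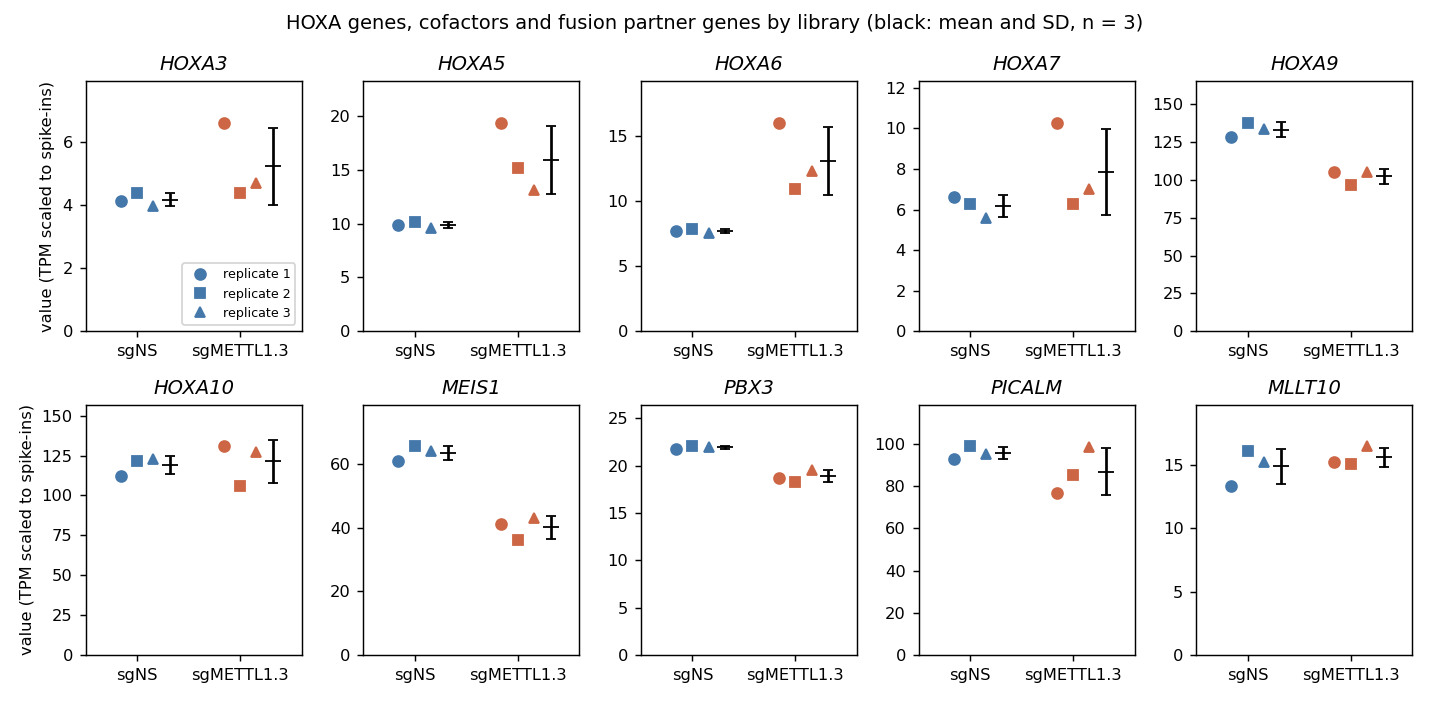
Values of the 10 genes in each library on the spike-in scale (vertical axes, starting at 0, one panel per gene). Symbols mark replicates, and black bars give the mean and SD of 3 libraries. HOXA5 and HOXA6 are higher in every sgMETTL1.3 library than in any sgNS library, HOXA9, MEIS1 and PBX3 are lower, and the other 5 genes overlap.

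**Figure D2:**
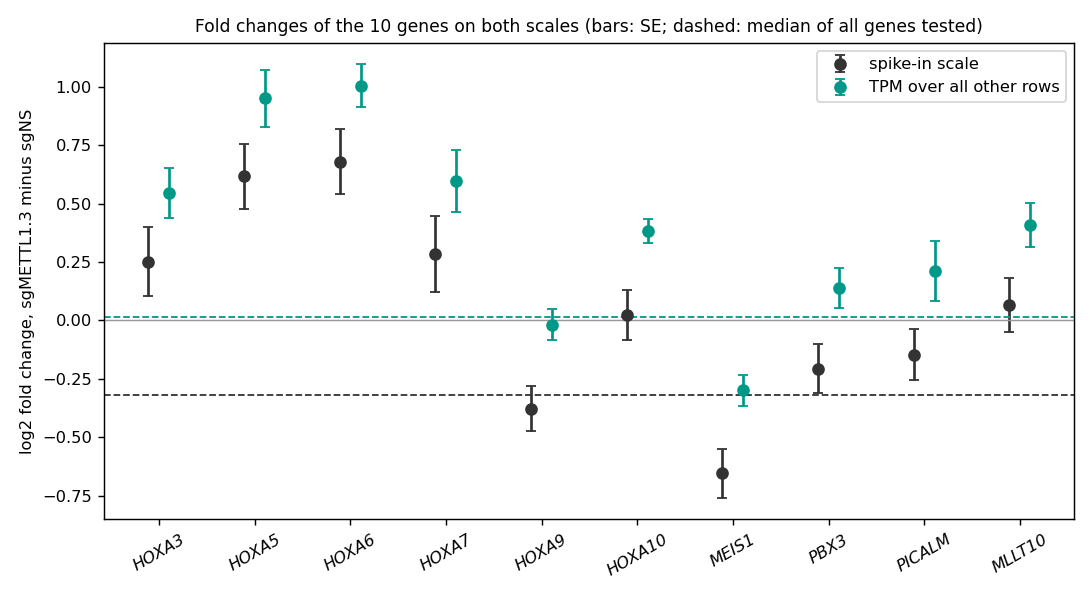
Log2 fold changes of the 10 genes (vertical axis, sgMETTL1.3 minus sgNS) on the spike-in scale and as TPM. Points are limma estimates with SE, and dashed lines are the medians of all genes tested, -0.32 and 0.01. HOXA5 and HOXA6 lie above 0 and MEIS1 below 0 on both scales, while HOXA9 lies near the median of all genes on each.

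HOXA9, the homeodomain factor most closely tied to acute leukemia, was the most abundant of the 10 genes in sgNS libraries. Its values on the spike-in scale were 128.26, 137.77 and 133.75 in sgNS and 104.99, 96.83 and 105.35 in sgMETTL1.3. Every sgMETTL1.3 library was below every sgNS library. The mean went from 133 ± 4.77 to 102 ± 4.82 (SD, n = 3), and limma put the log2 change at -0.38 with SE 0.0952 and adjusted p = 0.00430. This was close to the median of all genes. As TPM the groups overlapped, at 116 ± 1.58 and 115 ± 7.85 (SD, n = 3), and limma put the change at -0.02 log2 units (adjusted p = 0.835). HOXA9 therefore passed on the spike-in scale and did not pass relative to other transcripts.

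HOXA10, its neighbour and the other abundant HOXA gene of the list, did not pass on the spike-in scale and was called higher as TPM. Its spike-in values were 112.40, 121.86 and 122.71 in sgNS and 130.74, 105.97 and 127.26 in sgMETTL1.3, so the groups overlapped. Limma put the log2 change at 0.02, with SE 0.107 and adjusted p = 0.873. As TPM, HOXA10 had 102.5 to 104.97 in the sgNS libraries and 132 to 140 in the sgMETTL1.3 libraries, without overlap, and limma put the log2 change at 0.38 with SE 0.0516 and adjusted p = 0.00116. HOXA9 and HOXA10 share parts of a read-through transcript, and the row HOXA10-HOXA9 held at most 0.601 in any library.

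HOXA5, a homeodomain factor with roles in myeloid differentiation, rose on both scales. Its spike-in values were 9.90, 10.2 and 9.62 in sgNS and 19.4, 15.2 and 13.1 in sgMETTL1.3. The lowest sgMETTL1.3 library was above the highest sgNS library, and replicate 1 was the highest. Limma put the log2 change at 0.62, with SE 0.139 and adjusted p = 0.00199 on the spike-in scale, and at 0.95 as TPM (SE 0.122, limma adjusted p = 0.000961). Without sgMETTL1.3 replicate 1 these were 0.47 and 0.87, and after correction for GC content 0.59 and 0.93, all past the threshold.

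HOXA6, the neighbour of HOXA5, also rose on both scales. Its spike-in values were 7.68, 7.87 and 7.52 in sgNS and 16.002, 10.9 and 12.3 in sgMETTL1.3, again without overlap and highest in replicate 1. Limma put the log2 change at 0.68, with SE 0.139 and adjusted p = 0.00105, and at 1.01 as TPM (SE 0.0908, limma adjusted p = 0.000251). Without sgMETTL1.3 replicate 1 the log2 fold changes were 0.53 and 0.93, both past the threshold. HOXA6 transcripts have the highest GC content of the 10 (60.1% in the longest transcript), and GC correction gave 0.50 and 0.83. An antisense gene, HOXA-AS3, overlaps 39.3% of HOXA6 exonic bases on the opposite strand, and whether counting used strand is not given in the sources used here. HOXA-AS3 itself was listed at 0.135 to 0.677.

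HOXA7 and HOXA3 did not pass on the spike-in scale and were called higher as TPM. HOXA7 had spike-in values of 6.62, 6.30 and 5.57 in sgNS and 10.3, 6.26 and 7.02 in sgMETTL1.3. Replicate 1 of sgMETTL1.3 stood above the rest, and the groups overlapped. Its log2 fold change was 0.28 (limma adjusted p = 0.158), and 0.60 as TPM (limma adjusted p = 0.00896), where the groups did not overlap. On the spike-in scale it passed with sgMETTL1.3 replicate 2 left out (log2 fold change 0.41), and without sgMETTL1.3 replicate 1 the value was 0.10. HOXA-AS3 overlaps 62.5% of HOXA7 exonic bases, so reads from the pair could be assigned to either. HOXA3, the least abundant of the 10, had 4.13, 4.38 and 3.97 in sgNS and 6.60, 4.37 and 4.68 in sgMETTL1.3, and limma put the change at 0.25 log2 units (adjusted p = 0.166) and 0.55 as TPM (limma adjusted p = 0.00513). Without sgMETTL1.3 replicate 1 the HOXA3 value on the spike-in scale was 0.10.

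MEIS1, the TALE cofactor that stabilises HOXA9 on DNA, fell on both scales. Its spike-in values were 60.9, 65.5 and 63.9 in sgNS and 41.0, 36.1 and 43.1 in sgMETTL1.3. The groups were separated by a wide gap. The mean went from 63.5 ± 2.32 to 40.0 ± 3.60 (SD, n = 3), and limma put the log2 change at -0.65 with SE 0.105 and adjusted p = 0.000158. As TPM, limma put it at -0.30 with SE 0.0672 and adjusted p = 0.00928, the libraries holding 54.7 to 55.9 in sgNS and 41.6 to 47.3 in sgMETTL1.3. The fall in MEIS1 exceeded the median of all genes on each scale.

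PBX3, the other TALE cofactor of the trio, did not pass on either scale. Its spike-in values were 21.76, 22.015 and 21.94 in sgNS and 18.7, 18.3 and 19.5 in sgMETTL1.3. Every sgMETTL1.3 library was lower, by a small margin. Limma put the log2 change at -0.21, with SE 0.105 and adjusted p = 0.110, and at 0.14 as TPM (limma adjusted p = 0.221). With sgMETTL1.3 replicate 1 left out as TPM, or after GC correction as TPM, PBX3 was called higher, with log2 fold changes of 0.21 and 0.20.

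The genes of the fusion overlapped between groups and did not pass on the spike-in scale. PICALM, a clathrin assembly protein, had values of 93.1, 98.9 and 95.1 in sgNS and 76.6, 85.2 and 98.6 in sgMETTL1.3. The sgMETTL1.3 libraries were spread widely and reached the control range in replicate 3. Limma put the log2 change at -0.15, with SE 0.110 and adjusted p = 0.274, and 0.21 as TPM (limma adjusted p = 0.209). Replicate 1 of sgMETTL1.3 was the lowest, and without it PICALM was called higher as TPM (0.37), as it was after GC correction as TPM (0.31).

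MLLT10, a chromatin reader and partner of DOT1L, had values of 13.3, 16.1 and 15.2 in sgNS and 15.2, 15.1 and 16.5 in sgMETTL1.3. The groups overlapped, and limma put the change at 0.07 log2 units with SE 0.116 (adjusted p = 0.650). As TPM it was called higher, at 0.41 (limma adjusted p = 0.0103), with 12.2 to 13.5 in sgNS and 15.4 to 19.0 in sgMETTL1.3. KMT2A, the histone methyltransferase gene that the labels name as the partner, had 35.3, 38.7 and 35.5 in sgNS and 34.1, 31.7 and 37.2 in sgMETTL1.3. Its log2 fold change was -0.09 (limma adjusted p = 0.501), and 0.26 as TPM (limma adjusted p = 0.0321), a call that held without sgMETTL1.3 replicate 1 and was lost without any 1 of the other 5 libraries.

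TPM is a value per transcript length, so levels can be ordered between genes. In sgNS libraries the mean TPM ran from 116 for HOXA9 through 103.5 for HOXA10, 83.3 for PICALM, 55.2 for MEIS1, 19.1 for PBX3 and 12.9 for MLLT10 to 8.63 for HOXA5, 6.70 for HOXA6, 5.37 for HOXA7 and 3.62 for HOXA3. No pair of neighbours in this order overlapped between libraries. In sgMETTL1.3 libraries HOXA10 came first at 135 and HOXA9 second at 115, and their ranges were separate. HOXA9 then overlapped with PICALM (97.7), and PBX3 (21.2), HOXA5 (17.8) and MLLT10 (17.5) each overlapped with the next gene down, the last with HOXA6 (14.5). HOXA6, HOXA7 (8.67) and HOXA3 (5.78) did not overlap one another.

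Along the cluster the fold changes did not move steadily with gene order. From HOXA2 to HOXA7 the log2 values lay between -0.07 and 0.68, and from HOXA9 to HOXA13 between -0.67 and 0.02. As TPM these ranges were 0.21 to 1.01 and -0.31 to 0.38. A relation to position was not tested. HOXA4, transcribed at a low level, passed on neither scale, with log2 fold changes of -0.07 on the spike-in scale and 0.21 as TPM. HOXA2, a gene best known from hindbrain patterning, had a spike-in log2 fold change of 0.32 that did not pass (limma adjusted p = 0.0685) and was called higher as TPM (0.57). HOXA13, at the other end and best known from limb and urogenital development, fell on both scales, from 71.9 ± 4.0001 to 44.9 ± 3.34 (SD, n = 3), and the log2 changes were -0.67 (limma adjusted p = 0.000118) and -0.31 (limma adjusted p = 0.0189). The TPM call of HOXA13 was lost without any 1 of the 3 sgNS libraries. HOXA11 had a spike-in log2 fold change of -0.29 (limma adjusted p = 0.0518) and 0.07 as TPM, and passed on neither. HOXA11-AS overlaps 31.1% of HOXA11 exonic bases on the opposite strand, so reads from the pair could be assigned to either. Its mean spike-in value in sgNS was 39.4, against 50.5 for HOXA11. Of the 10 coding genes of the cluster from HOXA2 to HOXA13, 2 were called higher and 2 lower on the spike-in scale. Among all genes these shares were 6.40% and 49.3%. As TPM 6 were higher and 1 lower, against 24.8% and 25.3% of all genes. With sgMETTL1.3 replicate 1 left out the spike-in counts were 3 and 3, against 6.43% and 61.4% of all genes. HOXA2 (0.31) was then called higher and HOXA11 (-0.37) lower. With sgMETTL1.3 replicate 2 left out the spike-in counts were 4 and 2, with HOXA2 and HOXA7 added. Among all genes, 1037 were then higher and 5489 lower.

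**Figure D3:**
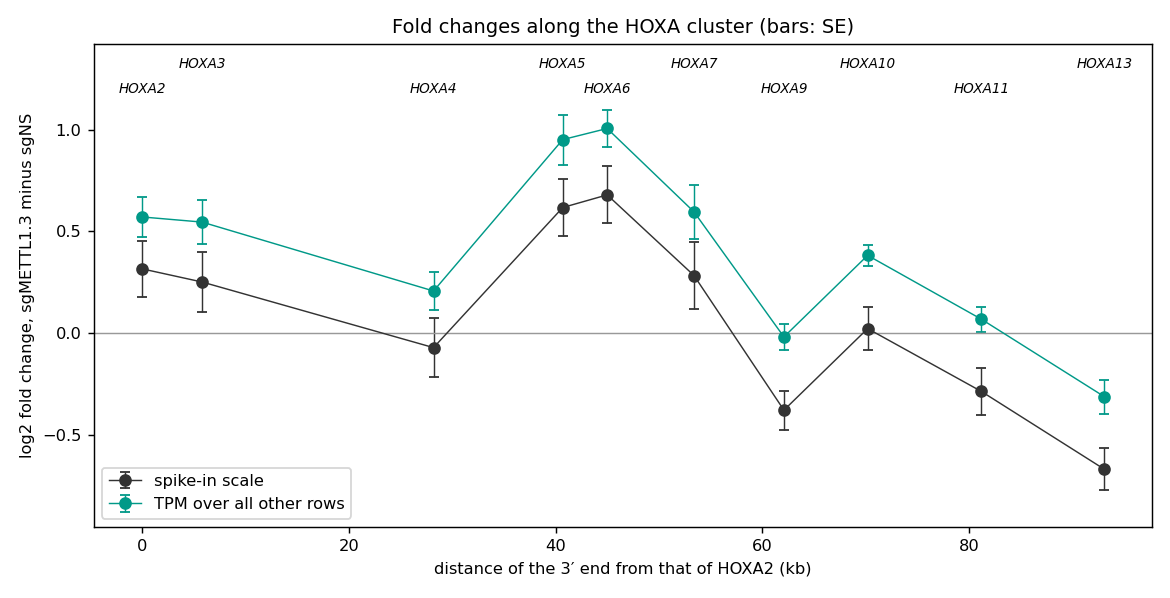
Log2 fold changes of the 10 HOXA genes from HOXA2 to HOXA13 (vertical axis, sgMETTL1.3 minus sgNS, with SE) against the distance of each gene's 3′ end from that of HOXA2 in kb. HOXA5 and HOXA6, 40.7 and 45.0 kb away, are highest and HOXA13, 93.1 kb away, is lowest on both scales, and lines join neighbouring genes only to guide the eye.

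Among the non-coding genes of the cluster, HOTAIRM1, a myeloid RNA of the cluster, rose from 5.16 ± 0.182 to 6.88 ± 0.865 (SD, n = 3), or 0.35 log2 units by limma (adjusted p = 0.0330; 0.66 as TPM). The spike-in call of HOTAIRM1 was lost without any 1 of the 3 sgNS libraries and without sgMETTL1.3 replicate 3, with log2 fold changes from 0.30 to 0.37, and its TPM call was kept with each library left out. HOXA10-AS was called higher as TPM (0.55) and not on the spike-in scale (0.27); the TPM call was lost without sgNS replicate 2 or 3 or sgMETTL1.3 replicate 3, and the spike-in scale gave a call (0.42) without sgNS replicate 1. HOTTIP, a long RNA beside HOXA13, and HOXA11-AS passed on neither scale, with spike-in log2 fold changes of -0.11 and -0.31, although HOXA11-AS was called lower (-0.50) with sgMETTL1.3 replicate 1 left out. Genes beside the cluster had 7 of 8 tested members lower and 0 higher (49.3% and 6.40% of all genes), with a median of -0.60. TAX1BP1 fell with log2 fold changes of -0.75 and, as TPM, -0.39, CBX3 with -0.76 and -0.40, and HNRNPA2B1 with -0.61 and -0.24. SNX10 fell on the spike-in scale (-0.59) and did not pass as TPM (-0.23, limma adjusted p = 0.226). As TPM this list had 3 lower and 1 higher, against 25.3% and 24.8% of all genes. These were 4 and 2 with sgMETTL1.3 replicate 1 left out, against 34.3% and 36.3%. They were 0 and 1 without sgNS replicate 1 or 2, and 1 and 1 without sgNS replicate 3. Among all genes, 2248 to 2300 were lower and 2215 to 2234 higher as TPM without any 1 sgNS library.

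Relations within a library do not depend on the scale. HOXA9 made up 32.9, 32.7 and 32.3% of the summed value of the 10 HOXA genes from HOXA2 to HOXA13 in sgNS and 27.2, 29.995 and 28.7% in sgMETTL1.3. HOXA10 made up 28.9, 28.9 and 29.6% in sgNS and 33.9, 32.8 and 34.7% in sgMETTL1.3. HOXA9 therefore led HOXA10 in every sgNS library, and HOXA10 led HOXA9 in every sgMETTL1.3 library. HOXA13 went from 17.6 ± 0.412% to 12.6 ± 1.0197% (SD, n = 3), and HOXA5 from 2.43 ± 0.110% to 4.44 ± 0.765% (SD, n = 3). The shares of HOXA4 overlapped between groups, and those of HOXA11 came as near as 12.052 and 12.051%.

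**Figure D4:**
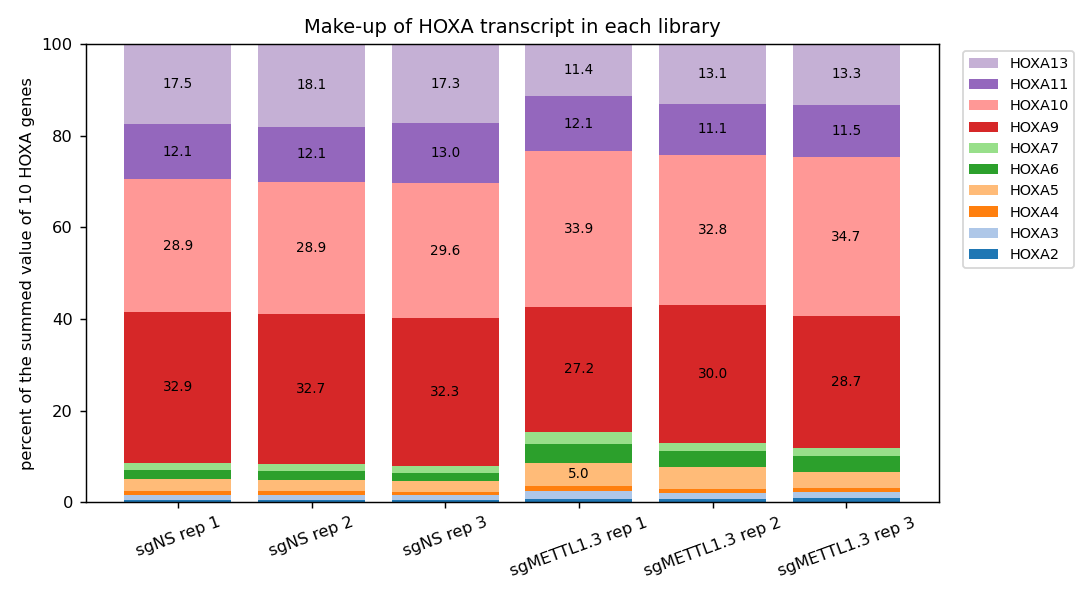
Share of each HOXA gene in the summed value of the 10 HOXA genes from HOXA2 to HOXA13 (vertical axis, percent) in each of the 6 libraries, with shares above 5% printed. HOXA9 is the largest share in all 3 sgNS libraries and HOXA10 in all 3 sgMETTL1.3 libraries, and HOXA13 shrinks from 17.6 to 12.6% on average.

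The ratio of HOXA10 to HOXA9 was 0.876, 0.884 and 0.917 in sgNS and 1.25, 1.09 and 1.21 in sgMETTL1.3. The ratio of MEIS1 to HOXA9 was 0.475, 0.475 and 0.478 in sgNS and 0.391, 0.372 and 0.409 in sgMETTL1.3, and that of MEIS1 to HOXA10 was 0.534 ± 0.0110 and 0.331 ± 0.0148 (SD, n = 3). HOXA5 to HOXA9 went from 0.0744 ± 0.00265 to 0.156 ± 0.0301 (SD, n = 3), and MLLT10 to PICALM from 0.155 ± 0.0105 to 0.181 ± 0.0162 (SD, n = 3). These were among 9 ratios computed after the values were known. For every ratio the exact permutation test, two-sided, returned 0.1, which is the smallest p possible with 3 against 3 (0.1 after Benjamini-Hochberg adjustment over the 9). A ratio shows unequal change and not which gene moved. The summed value of the 6 HOXA genes of the list was 269 to 288 in sgNS and 240 to 288 in sgMETTL1.3 on the spike-in scale, and 242 to 247 and 292 to 302 as TPM, so it overlapped on the first and was higher on the second.

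Few of the other HOX genes reached the filter, and those called were higher. Of 28 HOXB, HOXC and HOXD genes, 7 were tested, of which 3 rose and 0 fell on the spike-in scale, against 6.40% and 49.3% of all genes, and 5 rose and 0 fell as TPM, against 24.8% and 25.3%. HOXC6 rose from 7.88 ± 0.540 to 13.04 ± 2.07 (SD, n = 3), and limma put the change at 0.65 log2 units (adjusted p = 0.00110) and 0.98 as TPM. HOXC8 rose by 0.66 log2 units (0.92 as TPM) and HOXC4 by 0.58 (0.84 as TPM). HOXC5 had 0.40 without passing (limma adjusted p = 0.0560), passed on that scale without sgNS replicate 1, and was called higher as TPM (0.61), a call lost without sgNS replicate 2 or 3. HOXC10, the most abundant of them at 31.3 ± 2.81 in sgNS (SD, n = 3), was chosen after its values were seen and passed on neither scale (-0.23, and 0.12 as TPM). With sgMETTL1.3 replicate 1 left out it was called lower on the spike-in scale (-0.29) and higher as TPM (0.13).

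In a list of TALE genes that also holds PBXIP1, from outside the class, 8 of 12 genes were tested. Of these, 2 rose and 4 fell on the spike-in scale, and 3 and 2 as TPM. The shares of lower genes lie near those of all genes (49.3%, and 25.3% as TPM), and 6.40% of all genes were higher, or 24.8% as TPM. TGIF2, a repressor that binds the same core sequence as MEIS proteins, fell most, from 20.6 ± 1.21 to 8.11 ± 0.845 (SD, n = 3), and the log2 changes were -1.24 (limma adjusted p = 3.03e-06) and -0.91 as TPM. PKNOX1 and TGIF1 fell on the spike-in scale (-0.49 and -0.34) and did not pass as TPM (-0.15 and 0.01). MEIS3, a relative of MEIS1, rose from 4.8006 ± 0.918 to 8.12 ± 1.86 (SD, n = 3), or 0.65 log2 units by limma (adjusted p = 0.00543; 0.95 as TPM), opposite to MEIS1. PBXIP1, which encodes a PBX-interacting protein and is counted above among the higher genes on both scales, rose with 0.50 and, as TPM, 0.86. PBX2, the most abundant PBX gene, had 95.1 ± 4.07 and 90.7 ± 9.69 (SD, n = 3) and did not pass (-0.07), but was called higher as TPM (0.29). MEIS2 was listed at 0 in all libraries, and PBX4 did not reach the filter.

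Of 30 genes described as targets of HOXA9 and MEIS1, 25 were tested, of which 17 fell and 0 rose, against 49.3% and 6.40% of all genes. As TPM 13 fell and 3 rose, against 25.3% and 24.8%, and the median was -0.52 on the spike-in scale and -0.18 as TPM. MYC and MYB, oncogenic transcription factors, had the log2 fold changes farthest below 0 on both scales, at -1.57 and -1.30 on the spike-in scale. SYK, a signalling kinase, fell from 176 ± 5.88 to 86.0 ± 6.85 (SD, n = 3) and BCL2, the survival gene, from 11.8 ± 0.520 to 5.25 ± 0.737 (SD, n = 3), so that the log2 changes were -1.03 and -1.04. These 4 also fell as TPM. With sgMETTL1.3 replicate 1 left out, 19 of the targets fell, against 61.4% of all genes. As TPM 13 then fell and 7 rose, against 34.3% and 36.3%. Without any 1 of the other 5 libraries 9 to 13 fell and 1 rose as TPM. Among all genes, 2248 to 2926 then fell and 2215 to 2605 rose, against 3147 and 3093 with all libraries.

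The machinery that acts on HOXA chromatin was mixed. Of 20 tested genes of the MLLT10, DOT1L and elongation complex, 9 fell and 1 rose, and 4 fell and 4 rose as TPM. RTF1 and LEO1, subunits of the PAF1 complex, fell (-0.81 and -0.80, and -0.45 and -0.44 as TPM), AFF1, an elongation scaffold, fell (-0.66, and -0.31 as TPM), and ELL2, an elongation factor, rose with log2 fold changes of 0.85 and, as TPM, 1.17. Of 15 genes of the KMT2A and menin complex, 8 fell and 0 rose, and 3 fell and 5 rose as TPM, with PSIP1, the chromatin tether of menin, falling (-0.74, and -0.39 as TPM), WDR5 (-0.63 and -0.28) and ING4 (-0.56 and -0.23). ASH2L fell on the spike-in scale (-0.49) and did not pass as TPM (-0.14, limma adjusted p = 0.182). Of 20 other regulators of HOX chromatin, 11 fell and 3 rose, and 4 fell and 8 rose as TPM. The 4 with the smallest p on the spike-in scale were the Polycomb genes RNF2, BMI1, EED and ASXL1, which fell. Their log2 fold changes were -1.04, -0.74, -0.60 and -0.55, and -0.69, -0.38, -0.26 and -0.19 as TPM. No gene called higher was named by that rule. Under 24 alternative settings RNF2 kept its call throughout, BMI1 lost it in 3, and EED and ASXL1 in 6 each. AFF1 and PSIP1 lost theirs in 3 each and ING4 in 5. The shares of lower genes in these 3 lists on the spike-in scale lie near the 49.3% of all genes, of which 6.40% were called higher. As TPM 25.3% of all genes were lower and 24.8% higher. The elongation list had 12 lower and 2 higher with sgMETTL1.3 replicate 1 left out, against 61.4% and 6.43% of all genes, and as TPM 6 fell and 10 rose, against 34.3% and 36.3%. Without that library 11 KMT2A and menin genes fell, with 4 falling and 6 rising as TPM, and 9 HOX chromatin genes fell, with 5 falling and 12 rising as TPM. Without any 1 of the 3 sgNS libraries the TPM counts were 2 lower and 4 higher for the elongation list, 1 and 1 for the KMT2A and menin list, and 1 and 6 for the HOX chromatin list. Among all genes, 2248 to 2300 were then lower and 2215 to 2234 higher as TPM. On the spike-in scale 5 KMT2A and menin genes fell without sgNS replicate 3, and 7 HOX chromatin genes without sgNS replicate 2. Among all genes 5190 and 4880 fell in these settings, against 6142 with all libraries.

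All 6 genes of nuclear export and HOXA recruitment fell on the spike-in scale, against 49.3% of all genes, and 5 of them as TPM, against 25.3%. Leaving out 1 library kept the 6 on the spike-in scale. As TPM 2 were lower without sgNS replicate 2, 3 without sgNS replicate 1 or 3, and 4 without sgMETTL1.3 replicate 2 or 3. Among all genes, 2248 to 2926 were lower as TPM in these settings, against 3147 with all libraries. The median was -0.71, and SET fell, its log2 fold change being -1.021 (-0.66 as TPM), as did RAN with -0.88 (-0.52 as TPM) and NUP98 with -0.70 (-0.34 as TPM). XPO1, the export receptor that tethers PICALM-MLLT10 at HOXA genes, fell with -0.72 (-0.36 as TPM), and its TPM call was lost without any 1 of the 3 sgNS libraries. Of 23 tested genes of the clathrin coat and PICALM partners, 6 fell and 1 rose, against 49.3% and 6.40% of all genes, and 4 fell and 8 rose as TPM, against 25.3% and 24.8%. ITSN1 and EPS15, endocytic scaffolds, fell (-1.35 and -0.78, and -1.016 and -0.43 as TPM), as did the adaptor subunit AP2B1 (-1.21, and -0.85 as TPM), and VAMP2, a vesicle fusion protein that PICALM sorts, rose (0.67, and 1.0203 as TPM). The clathrin list had 12 lower and 1 higher with sgMETTL1.3 replicate 1 left out, against 61.4% and 6.43% of all genes, and as TPM 8 fell and 11 rose, against 34.3% and 36.3%. Without any 1 of the 3 sgNS libraries 2 to 3 of the clathrin list fell and 4 rose as TPM, while 2248 to 2300 of all genes fell and 2215 to 2234 rose.

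**Figure D5:**
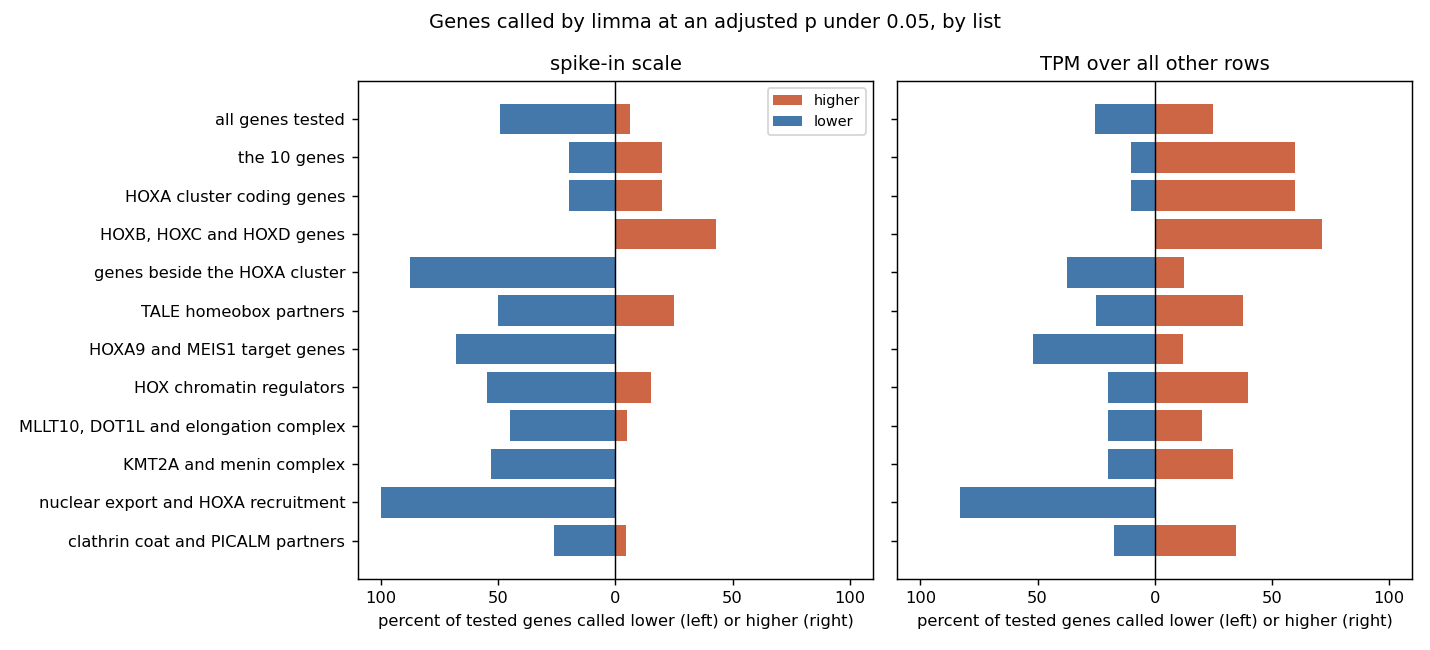
Percent of tested genes called lower (left of 0) or higher (right of 0) by limma in each list, on the spike-in scale and as TPM. The top row is all genes tested, 49.3% lower and 6.40% higher on the spike-in scale and 25.3% and 24.8% as TPM, against which the other rows are read.

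Myeloid markers were present, with 16 of 18 tested and a summed spike-in value of 2532 to 2729 in sgNS and 1582 to 1958 in sgMETTL1.3. Of these, 10 fell and 0 rose, against 49.3% and 6.40% of all genes, and 6 fell and 2 rose as TPM, against 25.3% and 24.8%. LYZ, which encodes lysozyme, fell with log2 fold changes of -2.47 and, as TPM, -2.11, FCGR1A with -0.85 and -0.50, FCGR2A with -0.72 and -0.36, and CD33 with -0.64 and -0.28. Markers that fell numbered 13, and 0 rose, without sgMETTL1.3 replicate 1, against 61.4% and 6.43%, and as TPM 7 fell and 4 rose, against 34.3% and 36.3%. CD14 and MPO, both defining genes of mature or immature myeloid cells, were at or below 0.677 in all libraries. CD3D, CD3G, MS4A1, HBB and KRT18 were listed at 0 in every library. The T and NK list summed to 307 to 341 in sgNS and 162 to 245 in sgMETTL1.3, with 3 of 10 genes at 0 in every library and 2 tested, NKG7, which fell (-0.74, and -0.38 as TPM), and CD2, which rose (0.75, and 1.03 as TPM). The B cell list had 3 of 5 tested and summed to 27.8 to 33.0 and 41.2 to 55.9; CD22 rose (0.80, and 1.15 as TPM), PAX5 fell (-0.76, and -0.49 as TPM), and CD79A did not pass (0.32) but was called higher as TPM (0.60). The erythroid and megakaryocytic list summed to at most 7.87. Its 1 tested gene, EPOR, fell on the spike-in scale (-0.63) and did not pass as TPM (-0.33, limma adjusted p = 0.0543), although it was called lower as TPM (-0.43) with sgMETTL1.3 replicate 1 left out. The epithelial and fibroblast list summed to at most 3.32, with COL1A1 rising (0.62, and 0.83 as TPM). The part of these genes in the HOXA and MEIS1 results was not tested.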

How the data were processed

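RNA was sequenced from 6 libraries of U-937 cells, 3 per guide, made from 300 ng of total RNA with ERCC spike-ins, per the labels' protocols, which name both QIAzol and TRIZOL for extraction. Per the submitters' processing notes, the authors worked with STAR, RSEM and cutadapt, and the notes name hg38 and GRCh38; the sources used here do not give versions, annotation or strand settings. As read from the values, the deposited signal was TPM in steps of 0.01 times a single factor for each library, which brings the total of 92 spike-in rows to 38252. TPM over all other rows was computed from these by rescaling each library to a total of 1000000.

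Genes that reached 1 in 3 or more of the 6 libraries (12449, and 12447 as TPM) entered limma 3.58.1 under R 4.3.3, with trend and robust settings, as log2(value + 1), with Benjamini-Hochberg adjustment over all of them at 0.05. Fold changes on that scale understate those of genes with low values. The code was tested on simulated data. The design had foreseen counts or scaled values, and the latter were found. GC content came from the longest GENCODE 29 transcript (94.3% of tested genes), and the correction removed a lowess curve (span 0.3) per library.

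The 10 genes and all lists were chosen with earlier results of these data known, and some genes of the lists are not reported here. Named were the 10 genes, METTL1, WDR4 and KMT2A, and genes of the cluster and TALE lists reaching a value of 1. Of each other list, up to 4 genes with the smallest p on the spike-in scale were named. On that scale 49.3% of all genes were called lower and 6.40% higher, so these need not represent the other genes of a list. WDR4, the METTL1 partner, fell (log2 fold change -1.16). Alternatives were other scalings, filters, pseudocounts, variance models, a replicate block, GC correction and left-out libraries.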

Additional observations from a re-analysis of the deposited data

How the results depend on the processing

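Of 24 alternatives, 18 were planned and 6, all on TPM (each of the other libraries left out, and a replicate block), were added after seeing the data. HOXA5, HOXA6 and MEIS1, 3 of the 10 genes, kept direction and call under every alternative that could be fitted. Of 58 other named genes, 30 kept their call, or its absence, under every such alternative. HOXA4 and HOTTIP are among these and changed sign without being called. Their log2 fold changes were -0.07 and -0.11 on the spike-in scale and 0.21 and 0.19 as TPM. The scale by its construction moves the median of all genes from -0.32 to 0.01. For changes other than those of scale, the cause was not tested. No counts or depth are known, so no counting interval can be given, and 3 libraries per group limit the precision.

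As TPM, by median-ratio rescaling, by quantile normalization and with GC-corrected TPM, log2 fold changes were 0.55, 0.55, 0.43 and 0.43 for HOXA3, 0.60, 0.60, 0.54 and 0.50 for HOXA7, 0.38, 0.38, 0.46 and 0.29 for HOXA10, and 0.41, 0.41, 0.40 and 0.47 for MLLT10, all called higher. In that order HOXA9 had -0.018, -0.017, 0.073 and -0.0069 and was not called. Values on the other side of 0 from the spike-in scale, in the same order, were 0.29, 0.29, 0.35 and 0.19 for PBX2, 0.0072, 0.0085, 0.034 and 0.11 for TGIF1, and 0.26, 0.27, 0.29 and 0.29 for KMT2A. GC-corrected TPM gave 0.20 for PBX3 and 0.31 for PICALM, both called higher. Over all genes 3093, 3179, 2978 and 3560 were called higher and 3147, 3340, 3231 and 4021 lower, and a filter at a mean of 5 left 510 higher. Of the 10 genes, 6, 6, 6 and 8 were higher and 1 was lower each time. The summed level of the 6 HOXA genes had a ratio of means of 1.22 as TPM.

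With each library left out in turn, on the spike-in scale and as TPM, HOXA3 ranged from 0.098 to 0.35 and from 0.45 to 0.61. HOXA7 ranged from 0.096 to 0.41 and from 0.47 to 0.67, HOXA9 ranged from -0.40 to -0.34 and from -0.063 to 0.035, and HOXA10 ranged from -0.034 to 0.12 and from 0.36 to 0.40. PBX3 ranged from -0.23 to -0.19 and from 0.077 to 0.21, PICALM ranged from -0.24 to -0.061 and from 0.13 to 0.37, and MLLT10 ranged from -0.0046 to 0.12 and from 0.35 to 0.49. PBX2 ranged from -0.14 to 0.015 and from 0.28 to 0.29, TGIF1 ranged from -0.40 to -0.29 and from -0.035 to 0.077, and KMT2A ranged from -0.15 to -0.035 and from 0.22 to 0.34. Genes called higher ranged from 534 (without sgMETTL1.3 replicate 3) to 1037 and from 2215 to 4445, and genes called lower from 4880 to 7538 and from 2248 to 4202, with 4445, 7538 and 4202 all without sgMETTL1.3 replicate 1. Of the 10 genes, 2 to 3 and 6 to 8 were higher, and 2 and 1 lower.

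The deviations of same-numbered libraries correlated at -0.014, 0.00455 and -0.039, so no shared effect of the replicate number was seen. These correlations cannot tell whether same-numbered libraries were handled together. On the spike-in scale a replicate block changed no call among the 10 genes, and HOTAIRM1 did not pass (adjusted p = 0.0731 by limma), while HOXC5 passed. With the block as TPM, HOXA3 had 0.55, HOXA7 0.60, HOXA9 -0.018, HOXA10 0.38, MLLT10 0.41, PBX2 0.29 and TGIF1 0.0072, with 2932 genes higher and 2953 lower, and 6 of the 10 higher and 1 lower.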
